A study of Pelodiscus sinensis with 8 samples.

Results

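FOSL2, JUNB, ATF3 and GADD45G are stress- and growth-factor-induced genes of the kind called immediate early genes, and they are 4 of the 19328 genes measured in interdigital webs of the Chinese soft-shell turtle, Pelodiscus sinensis. Each was found by its symbol, which stood on 1 gene of the authors' table, and its counts were taken by gene identifier. The genes were chosen by their measured levels in these same libraries, which were higher in the first web than in the last in both limbs. Their levels and slopes are therefore given as a description, without a test. Wild-type animals of Tokita-Kuratani stage 19 gave 8 libraries, 4 of hindlimb webs and 4 of forelimb webs. The webs are numbered from digit I, so that web 1 adjoins digits I and II while web 4 adjoins digits IV and V. Each library pooled 40 pieces of tissue from the left and right sides of the same 20 individuals, and each web of each limb is 1 library here. The genotype tag of the labels reads "anti-ICD" for the hindlimb pools and "ICD" for the forelimb pools, without spelling the term out. With 1 pool per web and limb, p-values cover the spread of the pools alone and not that of animals.

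FOS and JUN proteins pair through leucine zippers to form the transcription factor AP-1, which acts downstream of growth factor and stress kinases. FOSL2, also called FRA2, is a FOS protein that lacks the strong activation domain of FOS, and JUNB is a JUN protein that often tempers the activity of JUN. ATF3 is a related zipper protein of the ATF/CREB group, induced by many kinds of cell stress and able to repress its targets. GADD45G is a small acidic protein, not a transcription factor, which binds the stress kinase kinase MAP3K4 and the replication clamp PCNA. In mammals all of these are known for fast, short-lived transcription after growth factors or stress. The interdigital tissue in which they were measured regresses by cell death in limbs with free digits, such as those of mouse and chick, and persists in webbed ones.

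The libraries held 53116512 to 65849337 counts. All 4 genes were above the count minimum for testing in every library, and the lowest single count was 121, of GADD45G in hindlimb web 4. Values below are CPM, counts scaled to the library total and by TMM, unless TPM, which also divides by gene length, is named. Of the 7 limb mesenchyme markers listed, 6 stood under a symbol, none of them at 0, and their summed level was 1529 to 1954 TPM in hindlimb webs and 1491 to 2216 TPM in forelimb webs. With web number LHX9, MSX1 and PRRX1 fell and HOXD12 and TBX2 rose (edgeR, adjusted p at most 0.012).

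FOSL2 (ENSPSIG00000003916) stood at 27.1, 25.4, 17.4 and 13.3 CPM in hindlimb webs 1 to 4, and at 47.0, 32.8, 20.5 and 16.5 CPM in forelimb webs 1 to 4. In each limb every web was lower than the one before it, and forelimb web 1 was the highest of all 8. Web 1 exceeded web 4 by 2.04-fold in the hindlimb and by 2.84-fold in the forelimb.

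JUNB (ENSPSIG00000000714) stood at 33.8, 25.1, 23.3 and 20.1 CPM in hindlimb webs 1 to 4, and at 34.2, 25.1, 19.0 and 16.9 CPM in forelimb webs 1 to 4. The limbs were nearly level in webs 1 and 2, and the hindlimb was the higher one in webs 3 and 4. Web 1 exceeded web 4 by 1.68-fold in the hindlimb and by 2.02-fold in the forelimb.

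ATF3 (ENSPSIG00000017967) stood at 21.5, 17.2, 15.3 and 11.5 CPM in hindlimb webs 1 to 4, and at 24.0, 17.3, 16.7 and 12.8 CPM in forelimb webs 1 to 4. Its web 1 to web 4 ratio was the same to 3 digits in both limbs, at 1.88-fold. The drop was uneven: between webs 2 and 3 the level moved little, and the larger steps lay on either side.

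GADD45G (ENSPSIG00000013922) stood at 9.10, 6.75, 5.36 and 2.22 CPM in hindlimb webs 1 to 4, and at 9.34, 7.98, 3.38 and 3.44 CPM in forelimb webs 1 to 4. It had the lowest CPM of the 4 genes. Web 1 exceeded web 4 by 4.09-fold in the hindlimb, the largest ratio of the 4 genes there, and by 2.72-fold in the forelimb, below the 2.84-fold of FOSL2. Its forelimb profile was a drop between webs 2 and 3 with no further decline, so it was the only one of the 4 that did not go down at every step in both limbs.

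**Figure D1:**
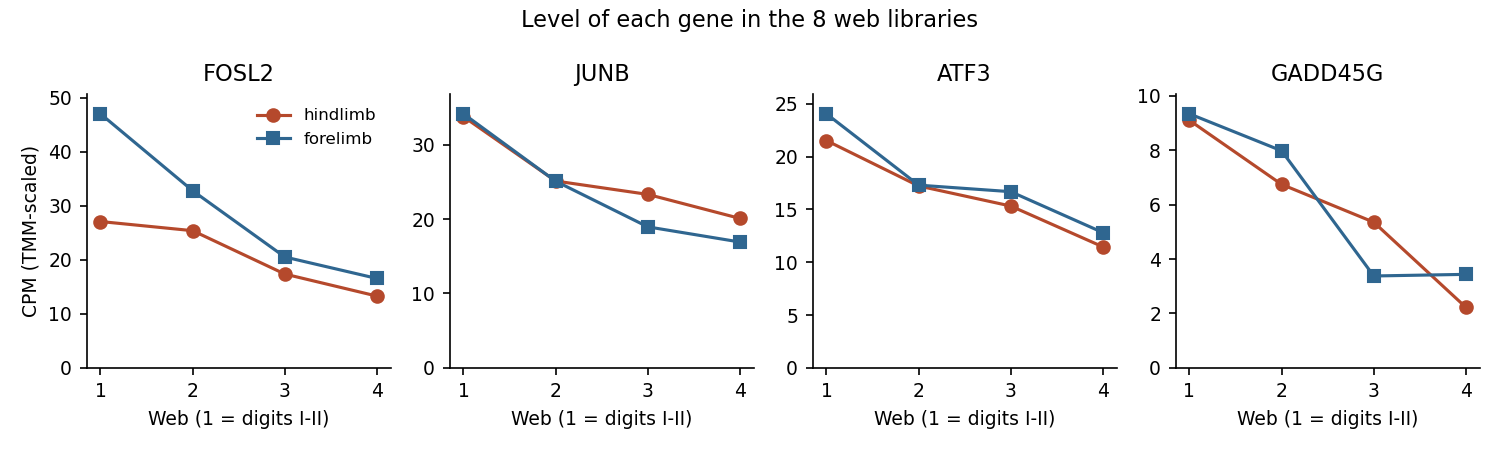
TMM-scaled CPM (vertical axis, from 0, a scale of its own in each panel) of FOSL2, JUNB, ATF3 and GADD45G against web number, with circles for hindlimb libraries and squares for forelimb libraries, 1 library per point. All 8 lines run down from web 1 to web 4, with the flat end of GADD45G at 3.38 and 3.44 CPM in forelimb webs 3 and 4 as the single step that did not decline.

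A decline at every step in both limbs was shared by 2.02% of the 14386 tested genes, and FOSL2, JUNB and ATF3 had it; the share is given beside a pattern for which the genes were chosen, and nothing is read from it. With both limbs pooled as a mean ± SD of 2 libraries, FOSL2 averaged 37.0 ± 14.1, 29.1 ± 5.23, 18.9 ± 2.23 and 14.9 ± 2.31 CPM in webs 1 to 4. JUNB averaged 34.0 ± 0.271, 25.1 ± 0.0160, 21.1 ± 3.09 and 18.5 ± 2.24 CPM. ATF3 averaged 22.8 ± 1.79, 17.3 ± 0.0533, 16.0 ± 0.962 and 12.1 ± 0.956 CPM. GADD45G averaged 9.22 ± 0.169, 7.37 ± 0.874, 4.37 ± 1.40 and 2.83 ± 0.859 CPM. The order of the web means was the same in all 4 genes. Neighbouring webs, of 2 libraries each, overlapped between webs 1 and 2 for FOSL2 and between webs 3 and 4 for JUNB and GADD45G. For ATF3 no pair of neighbouring webs overlapped. The share of all tested genes without such overlap was not computed, and nothing is read from these overlaps.

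Per unit of gene length the order of the genes was different. JUNB was the most abundant, with 16.2 to 34.9 TPM over the 8 libraries, followed by GADD45G with 2.63 to 11.6 TPM, ATF3 with 4.71 to 10.3 TPM and FOSL2 with 3.51 to 13.0 TPM. The means of the last 3 lay close together, at 7.29, 7.23 and 6.84 TPM, within the spread of each over the webs. FOSL2 had the highest CPM in forelimb web 1 but the lowest mean TPM of the 4.

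In a fit with limb and web number as terms, the slopes toward web 4 were -0.45 ± 0.0472 log2 units of CPM per web for FOSL2, -0.29 ± 0.0407 for JUNB, -0.28 ± 0.0417 for ATF3 and -0.59 ± 0.0918 for GADD45G (SE, 8 libraries). Fitted in each limb alone, FOSL2 had -0.36 in the hindlimb and -0.52 in the forelimb, JUNB had -0.24 and -0.34, ATF3 had -0.29 and -0.28, and GADD45G had -0.64 and -0.55, hindlimb first in each pair. Over all tested genes, 11.1% passed an adjusted p of 0.05 for the slope in edgeR's quasi-likelihood test, 644 rising and 956 falling. With library sizes unadjusted by TMM 482 genes rose and 1121 fell, and limma gave 319 and 1040 on log2(TPM + 1) and 247 and 795 on log2(TPM + 0.1). All 4 genes were among the falling ones under each of these scalings, a count that the choice of genes fixed. With the first web dropped from each limb, an alternative added once the data had been seen, the slopes were -0.48 ± 0.0644 for FOSL2, -0.22 ± 0.0642 for JUNB, -0.25 ± 0.0746 for ATF3 and -0.69 ± 0.153 for GADD45G (SE, 6 libraries). Over all genes 395 of 14366 tested then fell, against 956 of 14386 with all 8 libraries. The count of 4 among the falling genes was 2 with the first web dropped, and nothing is read from either count.

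**Figure D2:**
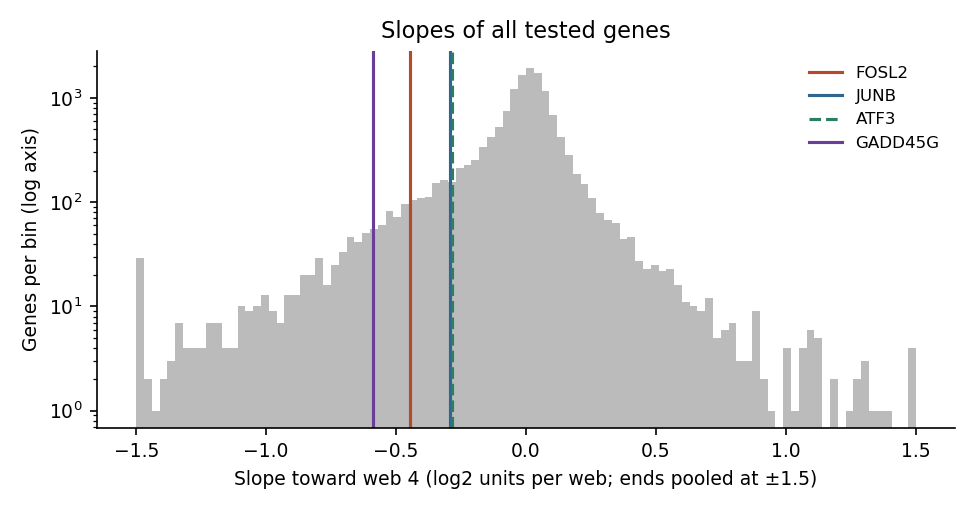
Number of genes (vertical log axis) by slope toward web 4 (horizontal axis, log2 units of CPM per web, values beyond 1.5 in size pooled in the end bins) for the 14386 tested genes, with a line for each of the 4 genes. GADD45G at -0.59 lies farthest into the falling side, followed by FOSL2 at -0.45, with JUNB and ATF3 side by side at -0.29 and -0.28.

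Some tested genes had lower slopes than theirs, counted here whether or not they passed. A lower slope than that of GADD45G belonged to 3.28% of tested genes, than that of FOSL2 to 5.73%, than that of JUNB to 10.4% and than that of ATF3 to 10.7%. Among the 956 falling genes, GADD45G ranked 223rd from the steepest, FOSL2 358th, JUNB 586th and ATF3 598th.

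Between the limbs, FOSL2 averaged 20.8 ± 6.55 CPM in hindlimb webs and 29.2 ± 13.7 CPM in forelimb webs (SD, n = 4 each). The hindlimb web was below its forelimb counterpart every time, at 0.576, 0.774, 0.846 and 0.803 of the forelimb level in webs 1 to 4. ATF3 averaged 16.4 ± 4.18 and 17.7 ± 4.67 CPM in hindlimb and forelimb webs, and also lay below the forelimb in each web, at 0.996 of it in web 2. A lower level in the hindlimb in each web was shared by 9.08% of tested genes. JUNB averaged 25.6 ± 5.85 CPM in hindlimb webs and 23.8 ± 7.74 CPM in forelimb webs, and GADD45G averaged 5.86 ± 2.87 and 6.04 ± 3.08 CPM.

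As log2 differences, hindlimb minus forelimb, these were -0.49 ± 0.334 for FOSL2, 0.10 ± 0.230 for JUNB, -0.11 ± 0.222 for ATF3 and -0.04 ± 0.456 for GADD45G (SE). With web number as a block, FOSL2 had -0.43 ± 0.103, JUNB 0.13 ± 0.0891, ATF3 -0.11 ± 0.0900 and GADD45G -0.06 ± 0.202. None of the 4 was past the limb threshold in either fit, where 0.0209% of tested genes were without the block and 0.167% with it (0.0904% higher and 0.0765% lower in the hindlimb). Middle webs (2 and 3) against outer webs (1 and 4) gave -0.09 ± 0.353 for FOSL2, -0.18 ± 0.236 for JUNB, -0.07 ± 0.234 for ATF3 and -0.04 ± 0.483 for GADD45G, with 0.00695% of tested genes past the threshold. The slopes of the limbs, hindlimb minus forelimb, differed by 0.15 ± 0.0853 for FOSL2, 0.11 ± 0.0778 for JUNB, -0.01 ± 0.0875 for ATF3 and -0.07 ± 0.191 for GADD45G. No gene at all passed the test of that difference in edgeR (percent called 0), against 558 genes at an unadjusted p under 0.05 and 1 gene in DESeq2.

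Across the 8 libraries, which share the same animals and the same web order, log2 CPM of the 6 pairs among the 4 genes correlated at Pearson's r of 0.788 to 0.907 (Spearman's rho 0.81 to 0.976). The closest pair was FOSL2 with ATF3 and the least close FOSL2 with JUNB. Without the 2 libraries farthest from the median of the first gene, r was 0.685 to 0.855. Once limb and web number had been taken out, r lay between -0.338 (FOSL2 with ATF3) and 0.356 (FOSL2 with JUNB). No p-value is given, since the genes were chosen for this likeness.

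The rest of their families set the 4 genes in context. JUN, the founding JUN protein, was far more abundant than JUNB, with a mean of 129 TPM against 24.8 TPM. JUN stood at 69.8, 80.2, 65.2 and 64.9 CPM in hindlimb webs 1 to 4 and at 67.3, 82.1, 78.3 and 58.5 CPM in forelimb webs 1 to 4, highest in web 2 in both limbs. Its slope of -0.07 ± 0.0476 did not pass (edgeR, adjusted p = 0.44). FOS, the classic serum-induced member, was low, with a mean of 2.13 TPM, and stood at 5.52, 3.65, 3.61 and 3.55 CPM in hindlimb webs 1 to 4 and at 3.32, 3.02, 3.71 and 3.42 CPM in forelimb webs 1 to 4. Hindlimb web 1 stood alone there, and the slope of -0.08 ± 0.0866 did not pass (adjusted p = 0.61). FOSB and FOSL1 held 18 and 15 counts over all 8 libraries and were not tested, so FOSL2, with a mean of 6.84 TPM, was the most abundant FOS-family gene measured here. JUND was not found under a symbol and was not analysed here.

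GADD45A, a p53-responsive relative of GADD45G, stood at 11.2, 8.76, 9.09 and 12.3 CPM in hindlimb webs 1 to 4 and at 11.0, 8.49, 7.85 and 7.50 CPM in forelimb webs 1 to 4. GADD45B, the third relative, stood at 3.47, 3.43, 2.69 and 3.84 CPM in hindlimb webs 1 to 4 and at 3.73, 3.63, 2.1 and 2.52 CPM in forelimb webs 1 to 4. Both were lower in web 3 than in web 1 of each limb and higher again in hindlimb web 4, where GADD45G was at its lowest. Their slopes of -0.06 ± 0.0688 (edgeR, adjusted p = 0.63) and -0.11 ± 0.0999 (adjusted p = 0.54) did not pass. Whether the slopes of FOSL2 and FOS, JUNB and JUN, or GADD45G and its relatives differ was not tested.

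The wider pathway was read from 10 lists holding 164 genes besides the 4, of which 114 stood under a symbol and 106 were tested. For the web slope 20 of the 106 passed, 10 rising and 10 falling, where 11.1% of all genes passed; the median slope was -0.0011 in these genes and 0.00015 in all genes. The lists were chosen with earlier values known, so their counts are a description. Without TMM 9 rose and 12 fell, and limma gave 5 and 10 on log2(TPM + 1) and 5 and 6 on log2(TPM + 0.1). Without hindlimb web 1 or web 4 the 20 became 10 or 13, and 10 with web 1 dropped from both limbs. For the limbs, the middle webs and the difference of slopes, 0 of the 106 passed in edgeR, against 5, 10 and 8 at an unadjusted p under 0.05 and 0 in DESeq2 in each.

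The list of other immediate early genes held 8 of the 10 falling genes. Of 41 listed 25 stood under a symbol and 21 were tested, 8 fell, 2 rose and 11 did not pass, where 6.65% of all tested genes fell and 4.48% rose. A negative slope was found in 16 of the 21 and in 49.9% of all tested genes, and the median of the 21 was -0.13 against 0.00015 in all genes. BTG2, a p53-responsive gene that slows proliferation, stood at 311, 201, 121 and 116 CPM in hindlimb webs 1 to 4 and at 399, 224, 116 and 118 CPM in forelimb webs 1 to 4. Most of its decline lay between webs 1 and 3, and its slope was -0.56 ± 0.0606 (edgeR, adjusted p = 0.00022). DUSP5, a nuclear phosphatase that switches off ERK, stood at 10.8, 10.1, 7.63 and 6.30 CPM in hindlimb webs 1 to 4 and at 13.1, 10.5, 7.40 and 7.30 CPM in forelimb webs 1 to 4 (slope -0.29 ± 0.0533, adjusted p = 0.0052). It went down at every step in both limbs. RHOB, a short-lived small GTPase, stood at 84.4, 87.9, 56.6 and 57.1 CPM in hindlimb webs 1 to 4 and at 77.4, 88.0, 57.0 and 47.5 CPM in forelimb webs 1 to 4 (slope -0.26 ± 0.0522, adjusted p = 0.0092). In the hindlimb the level of RHOB was a plateau over webs 1 and 2 and a lower one over webs 3 and 4. In the forelimb it rose from web 1 to web 2 and declined at each step after that.

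The other 5 that fell each lost the call when some single library was left out. They were the secreted matrix protein CCN2 (-0.33 ± 0.0916, edgeR adjusted p = 0.041), the orphan nuclear receptors NR4A1 (-0.29 ± 0.0699, adjusted p = 0.021) and NR4A3 (-0.23 ± 0.0597, adjusted p = 0.029), the NF-kappaB modulator NFKBIZ (-0.24 ± 0.0607, adjusted p = 0.025) and the pseudokinase TRIB1 (-0.22 ± 0.0509, adjusted p = 0.018). Leaving out hindlimb web 1 or hindlimb web 4 ended the calls of NR4A1 (adjusted p 0.0864 to 0.169) and TRIB1 (0.102 to 0.105). NFKBIZ lost its call without web 1 of either limb or hindlimb web 3 (0.0511 to 0.153). CCN2 lost it without webs 2 or 4 of either limb or hindlimb web 1 (0.0638 to 0.191), and NR4A3 without forelimb web 4 or any hindlimb web (0.0549 to 0.198). With web 1 dropped from both limbs, DUSP5 (adjusted p = 0.12), NR4A1, NR4A3 and NFKBIZ did not pass, and with web 4 dropped from both, RHOB (0.08), CCN2, NR4A3 and TRIB1 did not.

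SGK1, a kinase induced by serum and glucocorticoids, went the other way, with 36.9, 39.8, 44.7 and 48.2 CPM in hindlimb webs 1 to 4 and 34.9, 37.3, 41.8 and 49.2 CPM in forelimb webs 1 to 4, and rose with a slope of 0.15 ± 0.0292 (edgeR, adjusted p = 0.0074). It did not pass with web 1 or with web 4 dropped from both limbs (adjusted p = 0.094 and 0.082). ZFP36L1, which destabilises AU-rich messenger RNAs, rose by 0.09 ± 0.0239 per web (adjusted p = 0.043), and its call ended when any single library was left out (0.058 to 0.149). EGR1, a zinc finger factor driven by the same serum response as FOS, had -0.13 ± 0.0437 (adjusted p = 0.097), and the ERK phosphatase DUSP1 had -0.04 ± 0.0429 (adjusted p = 0.63). MYC had 0.04 (adjusted p = 0.58). KLF10, with -0.10, did not pass in edgeR (adjusted p = 0.076), but did in DESeq2 (adjusted p = 0.046) and in edgeR without TMM (0.043). KLF4, with -0.22 (edgeR, adjusted p = 0.21), passed when hindlimb web 4 was left out (0.018). EGR2, EGR3, ARC and HBEGF had 15 to 70 counts over the 8 libraries and were not tested.

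**Figure D3:**
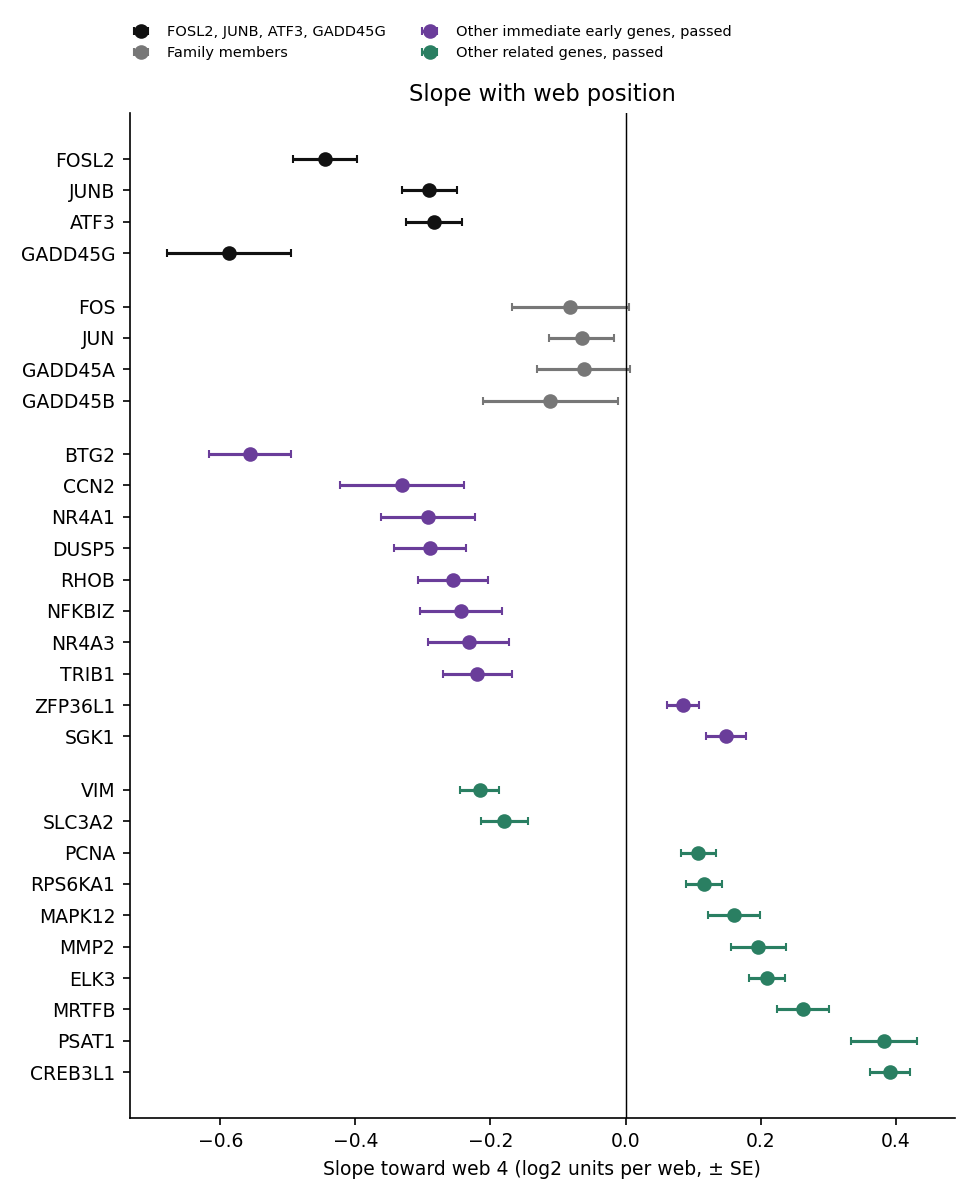
Slope toward web 4 (horizontal axis, log2 units of CPM per web, bars are the SE) of the 4 genes, of the 4 tested family members FOS, JUN, GADD45A and GADD45B, and of the 20 related genes that passed an adjusted p of 0.05. The 4 genes lie between -0.59 and -0.28, the family members between -0.11 and -0.06, and 8 other immediate early genes lie on the falling side with BTG2 at -0.56 at its end.

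On the list of other AP-1 and ATF/CREB zipper factors, 1 of 19 tested genes, CREB3L1, passed in edgeR, where 11.1% of all tested genes passed. CREB5 (slope 0.26, adjusted p = 0.024) and CEBPB (-0.28, adjusted p = 0.048) also passed in DESeq2, where 2185 of the 14386 tested genes did. NFE2L2, a zipper factor outside this list, fell (-0.20 ± 0.0251, edgeR adjusted p = 0.00056). CREB3L1, a membrane-bound factor that is released by cleavage and promotes collagen output, stood at 37.7, 50.4, 64.5 and 88.0 CPM in hindlimb webs 1 to 4 and at 37.6, 52.8, 71.0 and 82.3 CPM in forelimb webs 1 to 4. It rose at every step in both limbs (slope 0.39 ± 0.0298, edgeR adjusted p = 2.6e-05), the opposite order to FOSL2, JUNB and ATF3. ATF4, an abundant factor of the list at a mean of 580 TPM, had a slope of -0.02 ± 0.0279 and did not pass (adjusted p = 0.78). Among the GADD45 relatives and partners, PCNA rose slightly (0.11 ± 0.0259, adjusted p = 0.021), and its call ended without web 1 of either limb (0.0535 to 0.134); MAP3K4 had 0.07 ± 0.0360 and did not pass.

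The serum response and MAP kinase genes that feed immediate early transcription had 4 of 22 tested members that rose and none that fell, where 4.48% of all tested genes rose and 6.65% fell. These were ELK3, a ternary complex factor that can repress serum response elements (0.21 ± 0.0271, edgeR adjusted p = 0.00064), the SRF coactivator MRTFB (0.26 ± 0.0387, adjusted p = 0.0014), and the kinases RPS6KA1 (0.12 ± 0.0269, adjusted p = 0.018) and MAPK12 (0.16 ± 0.0385, adjusted p = 0.021). RPS6KA1 lost its call without hindlimb web 1 or 4 (0.0785 to 0.0945) and MAPK12 without web 1 of either limb or hindlimb web 4 (0.0603 to 0.116), and on log2(TPM + 1) neither passed in limma, nor did CCN2, ZFP36L1, PCNA or MMP2. ELK3 stood at 110, 127, 137 and 156 CPM in hindlimb webs 1 to 4 and at 102, 122, 152 and 171 CPM in forelimb webs 1 to 4, up at every step. SRF itself was not found under a symbol.

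Heat shock genes, which are induced by stress that damages proteins, had 0 of 13 tested members past the slope threshold in edgeR, with a median slope of 0.03. Over all tested genes 11.1% passed, 4.48% rising and 6.65% falling, and these shares stand beside each count of this paragraph. HSP90AB1 had 0.06 ± 0.0250 (edgeR, adjusted p = 0.14) and HSPE1 0.12 ± 0.0470 (adjusted p = 0.12). BAG3 (adjusted p = 0.07 in edgeR) was past the threshold in DESeq2 (adjusted p = 0.04), with a slope of 0.11, opposite in sign to the 4 genes. Integrated stress response genes, of which ATF3 is one, had 1 that rose and 1 that fell of 11. PSAT1, an enzyme of serine synthesis, rose by 0.38 ± 0.0487 per web (adjusted p = 0.00057) and SLC3A2, the heavy chain of amino acid transporters, fell by 0.18 ± 0.0342 per web (adjusted p = 0.0062, and 0.085 with web 1 dropped from both limbs). DDIT3, a partner of ATF3, had -0.12 ± 0.145 (adjusted p = 0.67). Of 8 tested p53 targets BTG2 alone fell. Of 8 tested AP-1 targets the collagenase MMP2 rose (0.20 ± 0.0403, adjusted p = 0.0094), a call that ended without web 1 of either limb or hindlimb web 4 (0.0516 to 0.0704), and the intermediate filament VIM fell (-0.22 ± 0.0287, adjusted p = 0.00076). MMP13 held no count in any library.

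Genes with the most similar profile were sought among 8406 tested genes with a symbol and at least 5 CPM, by Pearson's r of log2 CPM over the 8 libraries with the mean standardised profile of the 4 genes. That profile stood at 0.95, 0.25, -0.28 and -1.30 in hindlimb webs 1 to 4 and at 1.42, 0.49, -0.51 and -1.02 in forelimb webs 1 to 4. The 95th percentile of r over these genes was 0.854, and the libraries share animals and web order. TMEM38A, a subunit of an intracellular cation channel, came first (r = 0.993), followed by SERTAD2, a transcriptional coregulator (0.992), and RASGEF1B, an exchange factor for small GTPases (0.987). The others of the first 10 were TBX1 (0.986), LUZP2 (0.986), CA6 (0.984), SEMA4F (0.983), SLC7A10 (0.983), RAB20 (0.981) and HES4 (0.981). TBX1 is a T-box factor and HES4 a hairy-related repressor. SLC7A10, a transporter of small neutral amino acids, was the most abundant of them, at 290 CPM in web 1 and 66.7 CPM in web 4 (means of both limbs).

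The most opposed profiles belonged to the secreted protease ADAMTS19 (r = -0.987), CREB3L1 (-0.984), the myosin light chain kinase MYLK (-0.979), FAM160A1 (-0.979) and TMTC4 (-0.979). CREB3L1 was thus both a zipper factor of the lists and the second most opposed of 8406 genes. Gene by gene, FOSL2 was most like the prostaglandin-degrading enzyme HPGD (r = 0.992) and NFE2L2, the zipper factor of oxidative stress defence (0.986), and JUNB was most like the mitochondrial gene ND1 (0.987) and GPX3 (0.978). ATF3 was most like the small GTPase RAP1A (0.980) and SUPT3H (0.980), and GADD45G was most like SEMA4F (0.978) and PALMD (0.971). The gene most opposed to FOSL2 was UGDH (r = -0.981), to JUNB HMGB3 (-0.986), to ATF3 BMP7 (-0.978) and to GADD45G ANK2 (-0.983). TMEM38A stood among the first 5 of ATF3, and SEMA4F among those of GADD45G.

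**Figure D4:**
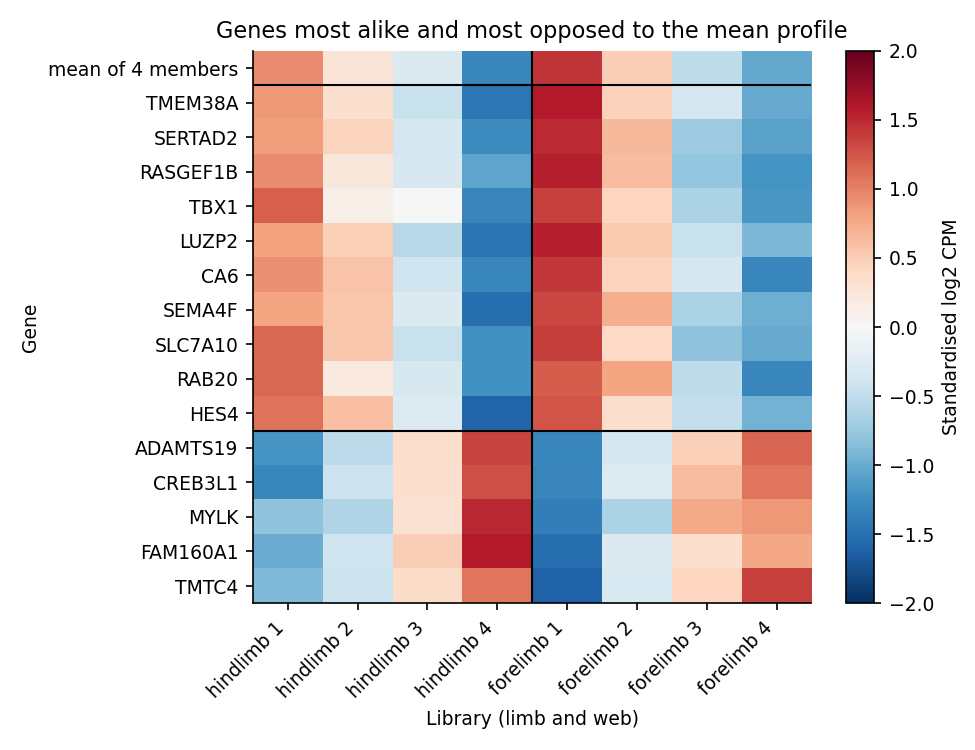
Standardised log2 CPM (colour) in the 8 libraries (columns, hindlimb webs 1 to 4 and then forelimb webs 1 to 4) for the mean of the 4 genes (top row), the 10 genes most like it (middle block) and the 5 most opposed to it (lower block). The mean profile runs from 0.95 to -1.30 along the hindlimb webs and from 1.42 to -1.02 along the forelimb webs, and the lower block shows the opposite order.

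The neighbours of the 4 genes on the chromosome were looked up in the RefSeq gene table of assembly ASM4963464v1, used for gene order only, a comparison added after the data had been seen. Only tested genes matched by symbol could be placed, so other tested genes may lie nearer, and up to 23 genes lay between (JUNB and MRI1). Of the 24 nearest genes so placed, 3 on each side of each gene, 1 fell and 1 rose with web number. Of all tested genes 6.65% fell and 4.48% rose. PLB1, a phospholipase next to FOSL2, fell (-0.56 ± 0.109, edgeR adjusted p = 0.0073), and PRDX2, a peroxidase next to JUNB, rose (0.14 ± 0.0315, adjusted p = 0.013). BATF3, another zipper factor, which lies next to ATF3, had 0.31 ± 0.29 and did not pass (adjusted p = 0.56). SEMA4D and DIRAS2 beside GADD45G did not pass (adjusted p = 0.75 and 0.23).

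Markers of other cell types are given beside these results, and their counts stand against 6.65% of all tested genes falling and 4.48% rising with web number. In whole tissue, fewer cells of a type and less RNA per cell cannot be told apart. Macrophage and leukocyte markers, 6 of 10 under a symbol and none at 0, summed to 105, 74.6, 47.6 and 61.3 TPM in hindlimb webs 1 to 4 and to 119, 84.8, 52.0 and 49.8 TPM in forelimb webs 1 to 4. All 6 had a negative slope and 4 fell: CSF1R, the receptor that macrophages depend on (-0.38 ± 0.0694, edgeR adjusted p = 0.0049), the complement gene C1QB (-0.34), LAPTM5 (-0.29) and SPI1 (-0.30). From web 3 to web 4 the sum rose in the hindlimb (47.6 to 61.3 TPM) and fell in the forelimb (52.0 to 49.8 TPM).

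Epidermal markers, 6 of 10 under a symbol and none at 0, summed to 414, 319, 294 and 340 TPM in hindlimb webs 1 to 4 and to 559, 362, 299 and 337 TPM in forelimb webs 1 to 4, highest in web 1 of each limb. GRHL3, a factor of epidermal differentiation (-0.63 ± 0.0669, edgeR adjusted p = 0.00021), and the desmosome gene DSP (-0.48 ± 0.068, adjusted p = 0.0011) fell. TP63, which marks the basal epidermis, rose (0.22 ± 0.0477, adjusted p = 0.014), and EPCAM did not pass (-0.10 ± 0.0567). Nerve and glia markers, 4 of 6 under a symbol, were low, at 5.09 to 9.25 TPM in hindlimb webs and 5.60 to 13.3 TPM in forelimb webs, and SOX10, a factor of neural crest and glia, fell (-0.29 ± 0.0493, edgeR adjusted p = 0.003).

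Skeletal muscle markers, 5 of 9 under a symbol, summed to 27.2 to 154 TPM in hindlimb webs and 27.9 to 103 TPM in forelimb webs, highest in web 1 of each limb, with 0 of 5 past the slope threshold in edgeR. Endothelial markers, 8 of 8 under a symbol, summed to 60.5 to 67.9 TPM in hindlimb webs and 48.4 to 69.6 TPM in forelimb webs, with 3 falling and 1 rising. Red blood cell markers, 3 of 9 under a symbol, summed to 564 to 1186 TPM in hindlimb webs and 1122 to 1905 TPM in forelimb webs, with none passing in edgeR. Of 7 tested pigment cell markers DCT and SOX10 fell and none rose, and of 6 cartilage markers SOX9 fell and COL2A1 rose. None of the markers under a symbol in these lists was at 0 in all libraries. What part these cell types have in the levels of FOSL2, JUNB, ATF3 and GADD45G was not tested.

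**Figure D5:**
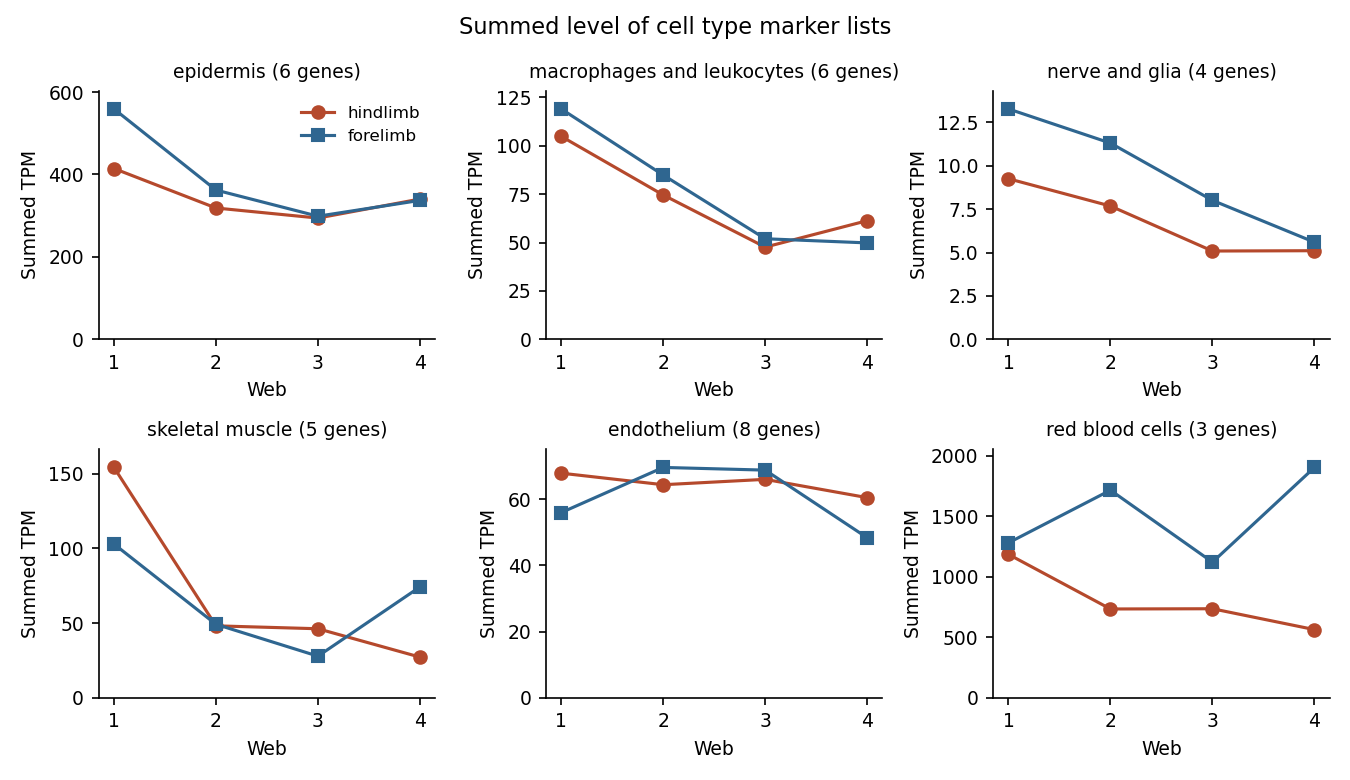
Summed TPM (vertical axis, from 0, a scale of its own in each panel) of 6 cell type marker lists against web number, circles for hindlimb libraries and squares for forelimb libraries. Macrophage and leukocyte markers run from 105 to 61.3 TPM over hindlimb webs 1 to 4 and from 119 to 49.8 TPM over forelimb webs 1 to 4, and epidermal and muscle markers are highest in web 1 of each limb.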

How the data were processed

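Column-purified, DNase-treated total RNA went into paired-end libraries made with a NEBNext Ultra kit, per the labels' protocols. The tools named, per the submitters' processing notes, are StringTie 2.1.7 and HISAT2 2.2.1. The build, annotation and strand setting are not given in the sources used here, so overlapping genes cannot be told apart. The authors deposited whole-number counts per gene, not normalised, and a table of TPM with symbols. Among 20472 low values, from 1 to 40, multiples of 4 made up 35.5% where 25% would be even. Single counts may therefore not be separate read pairs, and intervals for counting error are left out. The origin of this excess was not tested.

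Counts were fitted in R 4.3.3 with edgeR 4.0.16 (filterByExpr by limb, minimum count 10 and total 15, TMM factors 0.973 to 1.02). Quasi-likelihood tests were used, with Benjamini-Hochberg adjustment over 14386 genes. The same tests were run on simulated libraries drawn as independent. Such a run cannot show whether the p-values hold for libraries that share animals. Residual degrees of freedom were 6 for limb, 5 for web number and for middle webs, 4 for the interaction and 3 with the block. Log2 CPM used a prior count of 2. Standard errors are the fold change over the root of F. Alternatives used DESeq2 1.42.0, limma 3.58.1 on TPM, other scaling or filters, a robust prior and libraries left out. The check of pairing gave correlations of 0.498, 0.189, 0.242 and 0.327 between the deviations of same-numbered webs from their limb means. A web gradient shared by the limbs gives such correlations too, and all libraries share animals. The check therefore cannot tell pairing by animal from web position. Both libraries of a web enter the slope fit as if independent, which may make its p-values too small.

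The 4 genes and all lists were chosen with earlier results of these data known. Named were the 4 genes, their families, up to 4 passing genes of each list (or the 2 most abundant), and the genes most like them by r. Further passing genes, marker genes, and EGR1, DUSP1, KLF10, KLF4, MYC, ATF4, MAP3K4, BAG3, DDIT3, CREB5 and CEBPB were named after their values were seen. A few results are not reported here.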

Additional observations from a re-analysis of the deposited data

Results flagged for a closer look

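FOS in hindlimb web 1 stood at 5.52 CPM, against 3.65 CPM in the nearest of the other hindlimb webs, a gap that took 0.949 of the range of the 4 hindlimb libraries, by Dixon's criterion too large for 4 values. It was the single value to stand apart this way in 56 groups of 4 libraries, where chance flags about 1 group in 20. The 4 libraries of a group are different webs, not replicates, so an outlying library and a difference by web cannot be told apart. FOSL2, JUNB, ATF3 and GADD45G had no such library in either limb.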

How the results depend on the processing

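The log2 values of the 4 genes in the limb, web, middle and interaction fits moved by less than the spread between libraries in all 236 alternatives run. That is a wide criterion, since this spread was larger than the SE in each main fit. For FOSL2 it was 0.59 in the limb fit (SE 0.334) and 0.16 in the web fit (SE 0.0472). Web slopes stayed negative throughout, at -0.50 to -0.40 for FOSL2, -0.34 to -0.22 for JUNB, -0.30 to -0.25 for ATF3 and -0.69 to -0.50 for GADD45G. The limb difference of FOSL2 was -0.69 to -0.16; those of JUNB, ATF3 and GADD45G changed sign in some, as did the middle-web values of all 4 and the slope differences of ATF3 and GADD45G. With web number as a block the count of related genes past the limb threshold stayed at 0. The block changed no limb call of these or of the 4 genes, and over all genes it gave 24 calls against 3. The count of 20 related genes with a passed slope was 11 on log2(TPM + 0.1) and 10 without web 1 of both limbs, added after seeing the data, and 10 to 19 when single libraries were left out; the cause was not tested. Over all genes the 1600 passing slopes were 1042 on log2(TPM + 0.1), 681 without web 1 of both limbs, and 875 (hindlimb) or 1014 (forelimb) without web 1 of one limb. FOSB, FOSL1, EGR2, EGR3, ARC, BATF and HBEGF fell below the count filter and were not tested. Both libraries of a web share animals.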
